A study of Homo sapiens with 4 samples.

Results

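The promoters of 42 germline and meiosis genes, out of 28775 promoters counted, were examined by ATAC-seq in HEK293T cells with and without MORC2. The genes were chosen by name, as autosomal genes of the piRNA pathway, of meiotic chromosomes and of germ cell identity that somatic cells normally keep silent. The rule used names and no measured value, but the list was drawn up with earlier results of these data known. All 42 had a row in the promoter table, and all passed the filter on low counts. ATAC-seq cuts and tags exposed DNA with the transposase Tn5, so a fragment count at a promoter measures its accessibility and not its transcription.

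There were 2 MORC2 KO and 2 WT libraries of HEK293T, a human embryonic kidney line that carries the SV40 large T antigen. KO cells had been electroporated with Cas9 and a guide RNA against MORC2, a GHKL-type ATPase that takes part in silencing by the HUSH complex. WT cells are given as wild-type with no guide, and no other allele or agent is named for either group. The methods name HEK293 as the electroporated line, whereas the labels name HEK293T. Each KO library was a bulk pool made with a guide of its own and not a clone, so that guide and KO replicate cannot be told apart. In bulk cells, a promoter open in fewer cells and a promoter less open in each cell also cannot be told apart.

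Germ cells divide by meiosis, for which they build cohesin and synaptonemal complexes of their own between paired chromosomes, cut their DNA with SPO11 and repair it with the recombinase DMC1. They also make piRNAs, small RNAs that guide PIWI proteins to transposon transcripts in granules called nuage. In somatic cells many of these genes are held silent by DNA methylation of promoters rich in CpG, by E2F6 and MGA in a variant Polycomb complex and by methylation of H3K9, the mark that HUSH reads. None of these marks was measured here.

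Total promoter counts ran from 9435801 to 15152636 per library, of which mitochondrial rows took from 20.6% (KO replicate 2) to 35.1% (WT replicate 2). Summed over the 42 promoters, KO replicate 1 gave 6349 fragments and KO replicate 2 gave 9834, against 5725 for WT replicate 1 and 5628 for WT replicate 2. Counts are given below as CPM, counts scaled to a common library size by TMM. The table lists no window lengths, and levels are compared between promoters on the understanding that each is a window of 2 kb, as the methods define a promoter. The promoter of MORC2 itself gave 403 fragments in KO replicate 1, 639 in KO replicate 2, 247 in WT replicate 1 and 267 in WT replicate 2 (log2 fold change 0.43, SE 0.0869, adjusted p = 0.000279 by edgeR). Counts at a promoter do not check a knockout made by a guide RNA. Of the kidney line's markers, VIM (738 and 659 fragments in the WT libraries) and LHX1 (172 and 184) were well covered, and PAX2 (76 and 58) was low. Markers of other cell types were also low, from 15 fragments at PTPRC to 66 at MYH6 in a WT library.

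The promoters differ in their letters as well as in their counts. The 150 bases before the start are shown for 7 of them, to set side by side open promoters, closed promoters rich in CpG, a promoter without CpG and the promoters that stood farthest from WT in each direction. Sequences are from RefSeq on GRCh38.p14 and run 5′ to 3′ on the strand of the gene, with each CpG in capitals. All 7 stretches end at the base before the annotated start.
TDRKH (chr1:151790501-151790650, minus strand): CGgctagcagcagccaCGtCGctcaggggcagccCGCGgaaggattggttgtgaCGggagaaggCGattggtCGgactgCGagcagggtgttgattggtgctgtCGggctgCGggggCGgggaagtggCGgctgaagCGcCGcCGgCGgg
MSH5 (chr6:31739855-31740004, plus strand): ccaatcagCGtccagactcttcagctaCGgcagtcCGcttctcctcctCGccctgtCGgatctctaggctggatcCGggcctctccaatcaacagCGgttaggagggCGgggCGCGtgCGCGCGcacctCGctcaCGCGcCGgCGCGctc
DAZL (chr3:16605424-16605573, minus strand): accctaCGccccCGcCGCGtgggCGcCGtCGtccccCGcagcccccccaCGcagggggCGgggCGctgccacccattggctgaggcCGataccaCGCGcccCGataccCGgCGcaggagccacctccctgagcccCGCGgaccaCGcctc
MOV10L1 (chr22:50089856-50090005, plus strand): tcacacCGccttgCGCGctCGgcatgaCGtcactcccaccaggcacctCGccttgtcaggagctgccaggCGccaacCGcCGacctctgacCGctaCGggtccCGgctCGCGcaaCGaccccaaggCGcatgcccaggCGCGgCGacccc
STRA8 (chr7:135231765-135231914, plus strand): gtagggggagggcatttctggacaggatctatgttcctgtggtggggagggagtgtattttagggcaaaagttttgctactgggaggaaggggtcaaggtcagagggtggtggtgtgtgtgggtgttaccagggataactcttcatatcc
TDRD1 (chr10:114179137-114179286, plus strand): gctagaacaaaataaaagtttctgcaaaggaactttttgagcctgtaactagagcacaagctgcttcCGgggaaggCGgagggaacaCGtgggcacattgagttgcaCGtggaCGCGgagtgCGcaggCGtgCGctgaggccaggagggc
PRDM9 (chr5:23507459-23507608, plus strand): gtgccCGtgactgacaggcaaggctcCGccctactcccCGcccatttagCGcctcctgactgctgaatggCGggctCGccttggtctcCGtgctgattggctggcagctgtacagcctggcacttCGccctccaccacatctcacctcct
TDRKH, MSH5, DAZL and MOV10L1 carried from 17 to 20 CpGs in these stretches, TDRD1 carried 9, PRDM9 carried 8 and STRA8 carried 0.

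In WT cells the 42 promoters were, as a group, among the less accessible ones, but they did not form a uniformly closed set. Their median was 5.99 CPM, against 16.7 CPM over all 27647 tested promoters, and 29 of the 42 lay below that overall median. The range ran from 1.79 CPM at MEIOB, which binds single-stranded DNA in meiotic recombination, to 104 CPM at TDRKH, which tethers PIWI proteins to mitochondria. Promoters of 357 olfactory receptors, a silent comparison, had a median of 2.20 CPM and a 95th percentile of 4.19 CPM, and 9 members lay under that percentile. The other 33 were covered above the level that nearly all olfactory receptor promoters reached.

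The members of the piRNA pathway were mostly at the low end, with a median of 4.74 CPM and 10 of 15 under 10 CPM. The PIWI proteins, which carry the piRNAs, had the WT means of 4.36 CPM at PIWIL1, 3.16 CPM at PIWIL2 and 2.46 CPM at PIWIL4. DDX4, the RNA helicase used as a germ cell marker, had 1.87 and 3.88 CPM in WT replicates 1 and 2, and MOV10L1, the helicase that feeds precursors into the pathway, had 5.19 and 5.32 CPM. At DDX4 the WT libraries differed by more than any KO library differed from them. TDRKH, at 104 CPM in both WT libraries, stood above 98.9% of tested promoters. TDRD7, TEX15 and MAEL followed at 26.2, 21.6 and 18.2 CPM.

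Promoters of meiotic cohesin, axis and synaptonemal complex genes had a median of 8.77 CPM. STAG3, a cohesin subunit specific to meiosis, had 36.6 and 38.7 CPM in the WT libraries, and RAD21L1, a meiotic kleisin, had 24.9 and 29.7 CPM. SYCP1, which forms the transverse filaments of the synaptonemal complex, had 4.67 and 4.87 CPM, and SYCP3, of its lateral elements, had 3.74 and 4.98 CPM. The ranges of SYCP1 and SYCP3 overlapped, and both lay far below those of STAG3 and RAD21L1.

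Recombination genes had the highest median, 16.6 CPM. MSH5 and MSH4, mismatch repair homologues that pair with each other to stabilise crossovers, reached 67.9 and 36.2 CPM. PRDM9, the histone methyltransferase that places recombination hotspots, had 22.1 and 23.3 CPM and lay near DMC1 at 21.7 and 26.0 CPM, whose WT values span those of PRDM9. SPO11 had 3.12 and 4.87 CPM. Germ cell regulators had a median of 6.56 CPM. The RNA-binding proteins DAZL and BOLL had means of 3.72 and 5.35 CPM, the testis bromodomain protein BRDT 6.10 CPM and STRA8, which acts at meiotic entry, 7.78 CPM. TEX14, needed for the bridges between germ cells, was the most covered of them at 19.3 CPM.

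**Figure D1:**
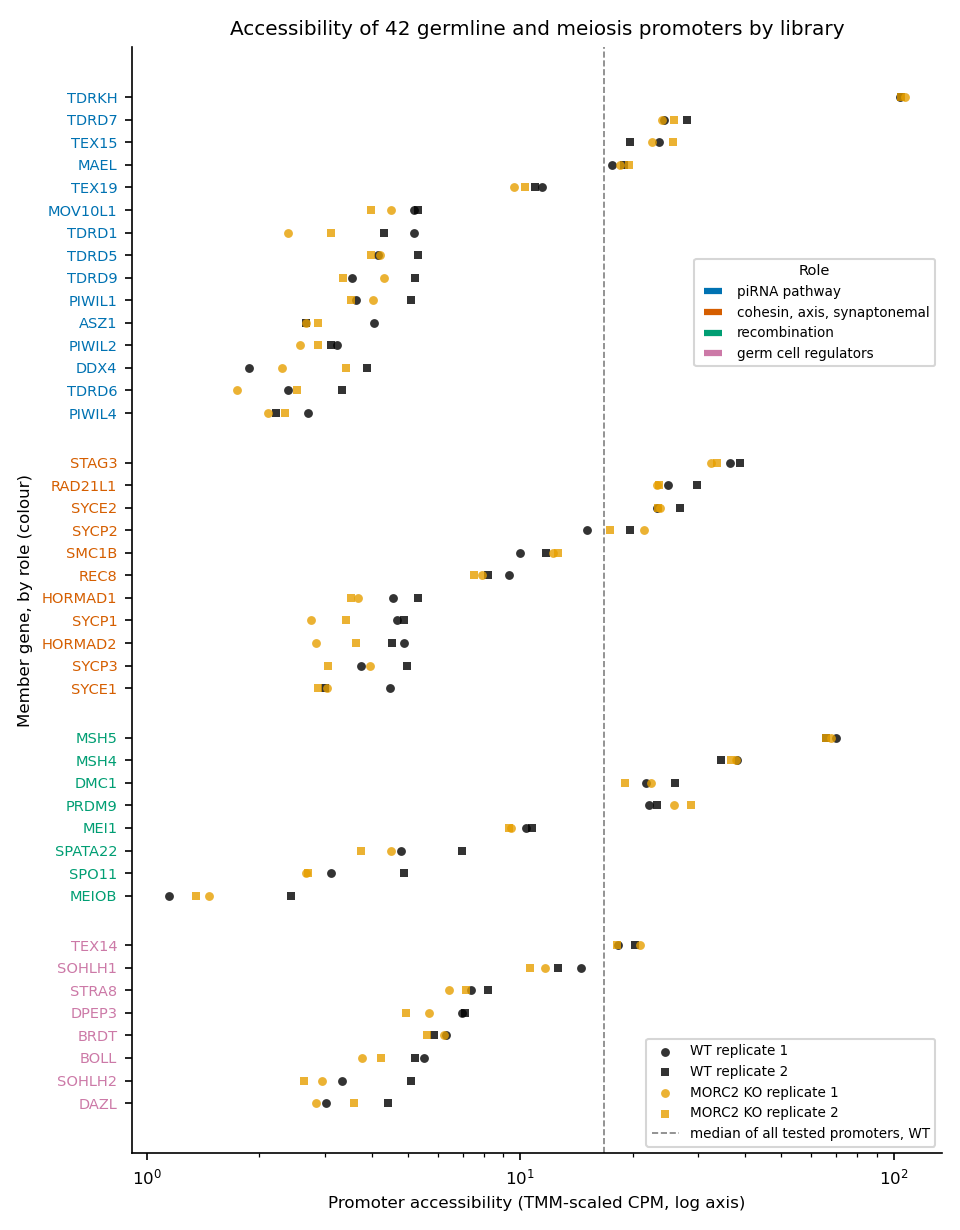
Promoter accessibility of each of the 42 members in each library, as TMM-scaled CPM on a log axis, grouped by role, with WT in black and MORC2 KO in orange (circles, replicate 1; squares, replicate 2) and the WT median of all tested promoters as a dashed line. TDRKH stood at 104 CPM in WT, 13 members lay above the dashed line at 16.7 CPM, and the KO and WT points of most members lay close together.

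Several of the more open promoters had counts close to those of a neighbouring gene. Rows of the table are windows around gene starts, so genes with close starts count the same fragments. In RefSeq gene order, with 3 neighbours taken on each side, 17 of the 42 members had a neighbour whose count differed by under 25% in every library, and 11 had one within 10%. Over all tested promoters placed on a nuclear chromosome the shares were 51.0% and 24.2%, against 40.5% and 26.2% of the members. At or over 10 CPM, a boundary set after the values were seen, 14 of 17 members had such a neighbour within 25%, against 67.6% of all promoters at that level. Under 10 CPM it was 3 of 25 members, against 28.7% of all promoters at that level, where counts are low. Distances between starts were not checked, so at either level a match can also arise between unrelated windows.

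The rows for TEX14 and IGBP1C were identical, at 228 fragments in KO replicate 1, 309 in KO replicate 2, 176 in WT replicate 1 and 183 in WT replicate 2. TDRKH differed by at most 0.200% from its antisense gene TDRKH-AS1, and MSH5 by at most 0.266% from the read-through gene MSH5-SAPCD1. Within 10% were also SYCP2 with FAM217B, MAEL with ILDR2, SMC1B with RIBC2, STAG3 with GPC2, TEX15 with UBXN8 and DMC1 with an uncharacterised locus, and at lower counts PIWIL2 with PIWIL2-DT and HORMAD2 with HORMAD2-AS1. Where the starts of such a pair are close, accessibility cannot be assigned to one gene or the other. The members that matched a neighbour within 25% had a median of 21.6 CPM in WT, against 4.74 CPM for the 25 that did not. PRDM9, SOHLH1 and MEI1 were the members at or over 10 CPM without such a neighbour.

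Somatic relatives of the same proteins gave the level of an open promoter in these cells. Their 19 promoters had a median of 51.4 CPM in WT, and 81 ribosomal protein promoters lay between 19.5 and 65.8 CPM from their 5th to their 95th percentile. For the cohesin subunits, STAG1 had 93.8 CPM and SMC1A 66.8 CPM, against 37.6 CPM for STAG3 and 10.9 CPM for SMC1B. RAD21 had 31.4 CPM, against 27.3 CPM for RAD21L1 and 8.77 CPM for REC8. MOV10 had 45.4 CPM, against 5.25 CPM for MOV10L1. AGO1, at 4.89 CPM, was the exception among these relatives and lay near PIWIL1. The 34 tested promoters of a second list of germline genes, which includes TEX12 and DPPA3, had a median of 5.86 CPM, near that of the members.

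**Figure D2:**
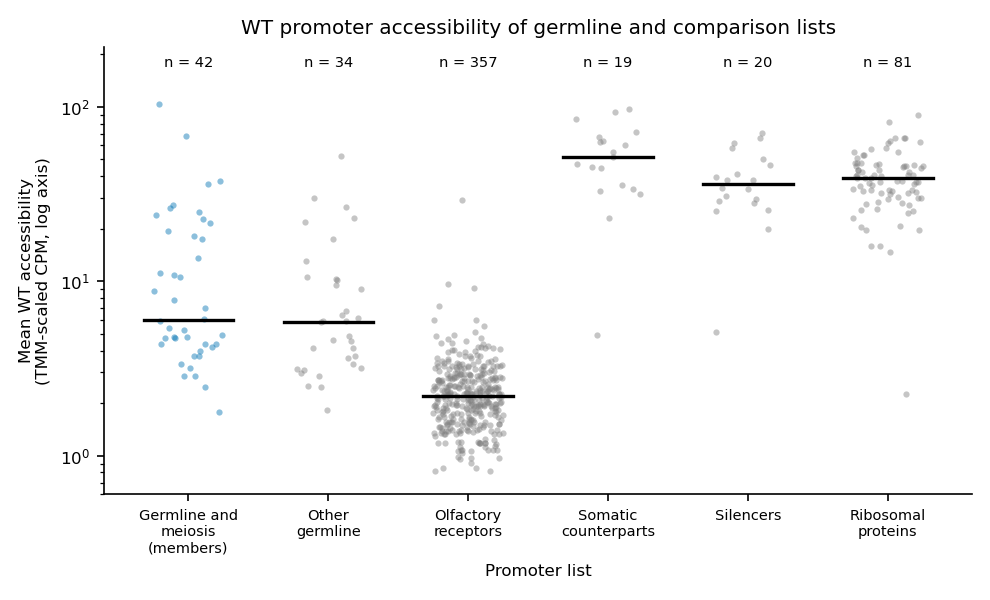
Mean WT accessibility of each promoter (TMM-scaled CPM, log axis) in the germline and meiosis members and in 5 comparison lists, with a bar at the median of each list. Members and the other germline genes had medians of 5.99 and 5.86 CPM, between olfactory receptors at 2.20 CPM and the somatic relatives at 51.4 CPM.

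Most of the low members with a sequence were rich in CpG. Of the 42 members, 35 matched a RefSeq promoter of 300 bases, which runs from 250 before to 50 after the start, as did 19082 tested rows in all. The ratio of observed to expected CpG had a median of 0.81 in the members and 0.73 in all promoters, and GC content a median of 66.7% and 61.7%. At a CpG ratio of at least 0.6, 18 of 30 members (60.0%) had under 10 CPM in WT, against 1325 of 11599 (11.4%) of all promoters with that ratio. At the stricter ratio of 0.75 the shares were 12 of 21 (57.1%) and 9.12%. Of the 21 members under 10 CPM with a sequence, 3 had a ratio below 0.6, namely DDX4 (0.12), TDRD5 (0.54) and STRA8 (0). The median WT level at a ratio of at least 0.6 was 5.99 CPM in the members and 36.0 CPM in all promoters.

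The sequences printed above show this spread. DAZL, with a CpG ratio of 0.86, and MOV10L1, with 1.05, had 3.72 and 5.25 CPM, whereas TDRKH, with a ratio of 0.79, and MSH5, with 0.98, had 104 and 67.9 CPM. STRA8, without a CpG in its 300 bases, had 7.78 CPM and thus lay above both DAZL and MOV10L1. Across the 35 members the rank correlation of CpG ratio with WT CPM was 0.19, against 0.61 across all 19082 promoters. All points come from the same libraries, and the letters come from another assembly than the counts, so these are descriptions.

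**Figure D3:**
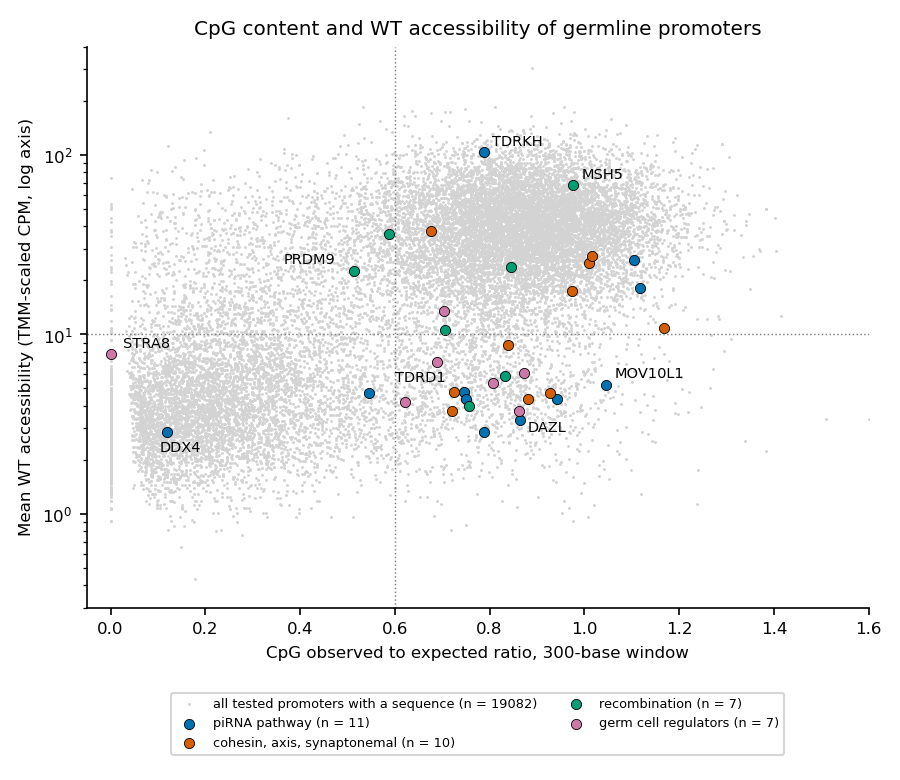
CpG observed to expected ratio of the 300-base promoter against mean WT accessibility (TMM-scaled CPM, log axis) for the 35 members with a sequence, coloured by role, over all 19082 tested promoters with one (grey). Dotted lines mark a ratio of 0.6 and 10 CPM, and 18 of the 30 members right of the first line lie under the second, against 11.4% of all promoters there.

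Short motifs were counted on both strands of the same 300 bases. GCGGGA, the core bound by E2F factors, was in 22 of 35 members (62.9%) and in 32.4% of all promoters, and CACGTG, an E-box bound by MAX and its partners, was in 6 (17.1%) and 8.30%. GGGCGG, the GC box, was in 28 (80.0%) and 54.3%. Among promoters with a CpG ratio of at least 0.6 the shares of members and of all promoters were 66.7% and 47.0% for GCGGGA, 20.0% and 10.6% for CACGTG and 86.7% and 76.9% for GGGCGG. TCACACCT, bound by T-box factors, was in 0 of 35 members and 0.949% of all promoters. Matches of GCGGGA and of GGGCGG can overlap. CACGTG reads the same on both strands and was counted once per position. TDRD1 held it at 2 positions, both in the stretch printed above, and held neither GCGGGA nor GGGCGG.

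To ask whether accessibility of these promoters differed without MORC2, the fit of edgeR was run across all tested promoters, and those with an adjusted p under 0.05 in its quasi-likelihood F-test were called. No member was called higher in KO, where 3.45% of all promoters were, and 1 member, TDRD1, was called lower, where 0.995% were. At an unadjusted p under 0.05, 1 member (PRDM9) was higher, against 11.5% of all promoters, and 12 members (28.6%) were lower, against 8.87%. These shares of all promoters depended on level. Under 10 CPM in WT, 8 of 25 members were lower and 0 higher, against 15.4% and 0.890% of all promoters at that level. At or over 10 CPM, 4 of 17 members were lower and 1 higher, against 4.00% and 19.4%. The DESeq2 Wald test, which called 7 promoters in all, called 0 members and had 1 at an unadjusted p under 0.05. Log2 fold changes of the members ran from −0.76 to 0.28, with a median of −0.20 against −0.017 over all promoters. Values were below 0 at 33 of 42 members, against 53.3% of all promoters.

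The fit bounded how far any member could have opened. The standard error of the log2 fold change ran from 0.062 at TDRKH to 0.353 at MEIOB, the members with the most and the fewest fragments. DESeq2 gave larger standard errors, for example 0.382 against 0.239 at TDRD1 and 0.151 against 0.0969 at PRDM9, so the interval ends below hold for edgeR alone. The upper end of the 95% interval was highest at DDX4, at 0.58 on the log2 scale or 1.50-fold, and lay under 0.5 at the other 41 members. Over the edgeR settings, for which alone intervals were computed, the highest upper end was 2.62-fold, at DDX4 without WT replicate 2.

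TDRD1, a Tudor protein that binds PIWI proteins in nuage, had 26 fragments in KO replicate 1, 53 in KO replicate 2, 50 in WT replicate 1 and 39 in WT replicate 2. Scaled to depth these were 2.38 and 3.11 CPM in KO and 5.19 and 4.32 CPM in WT, so both KO libraries lay below both WT libraries. The same held at 41.6% of all promoters under 10 CPM in WT. The log2 fold change of TDRD1 was −0.76 (SE 0.239, adjusted p = 0.0414 by edgeR), with a 95% interval from −1.23 to −0.29. The call was lost without any one of the 4 libraries, with values from −0.99 (without KO replicate 2) to −0.60 (without KO replicate 1) and adjusted p from 0.101 to 0.234. It was also lost with a replicate block (adjusted p = 0.0505), with loess offsets on abundance (−0.52, adjusted p = 0.296) and with total count scaling (−0.61, adjusted p = 0.457).

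PRDM9 stood farthest from WT in the other direction. It had 282 fragments in KO replicate 1, 490 in KO replicate 2, 213 in WT replicate 1 and 210 in WT replicate 2, which is 25.9 and 28.7 CPM in KO and 22.1 and 23.3 CPM in WT. Neither KO value was as low as a WT value, and the log2 fold change was 0.28 (SE 0.0969, adjusted p = 0.0679 by edgeR). The difference was not called at 0.05. SMC1B, the meiotic SMC subunit, was the other member whose KO values both exceeded the WT values, at 12.2 and 12.6 CPM in KO and 9.97 and 11.7 CPM in WT, with a log2 fold change of 0.20 and adjusted p = 0.422.

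Of the meiotic chromosome genes, SYCP1 had 2.75 and 3.40 CPM in KO and 4.67 and 4.87 CPM in WT, with a log2 fold change of −0.60 and adjusted p = 0.112. HORMAD2, an axis protein, had 2.84 and 3.64 CPM in KO and 4.88 and 4.54 CPM in WT (−0.51, adjusted p = 0.190). RAD21L1 had 23.3 and 23.5 CPM in KO and 24.9 and 29.7 CPM in WT (−0.22, adjusted p = 0.167). STAG3 had 32.5 and 33.7 CPM in KO and 36.6 and 38.7 CPM in WT (−0.18, adjusted p = 0.190). In all of these both KO libraries lay below both WT libraries, and none was called. The same separation was found at 25.4% of all promoters, and these genes had been taken by smallest p. Over the 11 genes of this role the median log2 fold change was −0.22, with 9 values below 0.

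Among recombination genes, SPATA22, the partner of MEIOB, had 4.49 and 3.75 CPM in KO and 4.78 and 6.98 CPM in WT (−0.53, adjusted p = 0.126). SPO11 had 2.66 and 2.70 CPM in KO and 3.12 and 4.87 CPM in WT (−0.56, adjusted p = 0.181). DMC1 had 22.4 and 19.1 CPM in KO and 21.7 and 26.0 CPM in WT (−0.22, adjusted p = 0.200), and its groups overlapped. The median over the 8 genes was −0.19. MSH4 and MSH5, the most open of them, had log2 fold changes of 0.03 and −0.03.

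The germ cell regulators include SOHLH2 and SOHLH1, transcription factors of early germ cell differentiation. SOHLH2 had 2.93 and 2.64 CPM in KO and 3.32 and 5.09 CPM in WT (−0.60, adjusted p = 0.142), and SOHLH1 had 11.6 and 10.6 CPM in KO and 14.5 and 12.6 CPM in WT (−0.30, adjusted p = 0.181). DPEP3, a testis dipeptidase, had 5.69 and 4.93 CPM in KO and 6.96 and 7.09 CPM in WT (−0.42, adjusted p = 0.186). At all 3 both KO libraries lay below both WT libraries, as at 25.4% of all promoters, and none was called. Members taken by smallest p are more likely to show such a separation. Without WT replicate 1 the log2 fold changes of SOHLH2, SPATA22 and RAD21L1 were −0.88, −0.78 and −0.34. Without WT replicate 2 they were −0.27, −0.24 and −0.091, so their size depended on which WT library was kept.

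The median over the 15 piRNA genes was −0.20, with 11 values below 0 and only TDRD1 under an unadjusted p of 0.05. The PIWI genes PIWIL1, PIWIL2 and PIWIL4 had log2 fold changes of −0.22, −0.20 and −0.13, and DDX4 and TDRKH had 0.06 and 0.02. Over the 42 members both KO libraries lay below both WT libraries at 18, against 25.4% of all promoters, and above both at 2, against 25.2%. The libraries of the groups overlapped at the other 22. Under 10 CPM, KO lay below at 13 of 25 members (52.0%), against 41.6% of all promoters at that level. It lay above at 0, against 713 of 11804 promoters. At or over 10 CPM, KO lay below at 5 of 17 members (29.4%), against 13.2%, and above at 2, against 6259 of 15843 promoters.

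**Figure D4:**
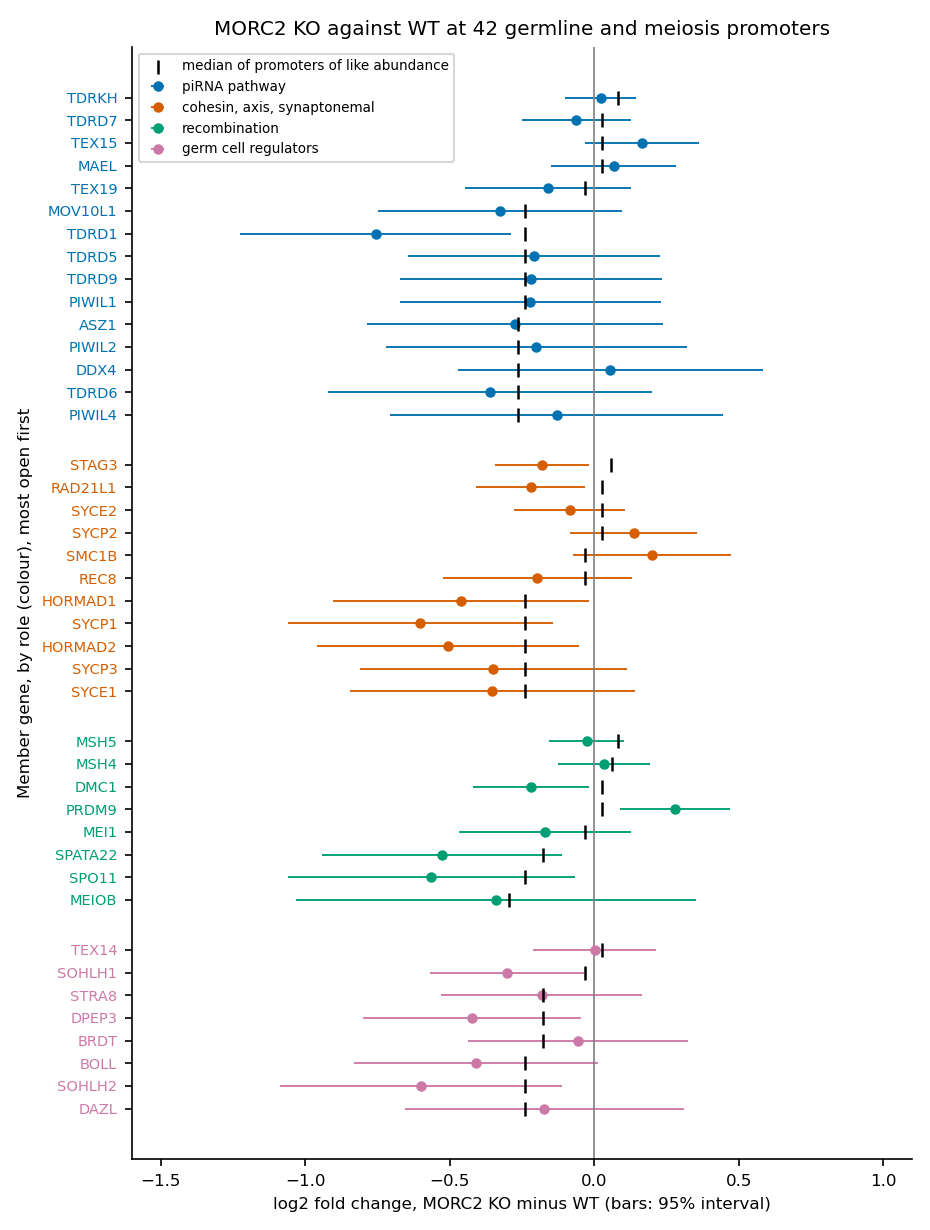
Log2 fold change of MORC2 KO against WT at each member, with bars for the 95% interval of the edgeR fit, coloured by role, and a black tick at the median of the promoters in the same of 10 abundance classes. The interval of TDRD1, the member called, runs from −1.23 to −0.29, and 41 of 42 intervals end under 0.5.

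The difference between KO and WT depended on the level of a promoter across the whole table. When all promoters were ranked by abundance and split into 10 classes of equal size, the median log2 fold change was −0.29 in the lowest class, −0.24 in class 3 and 0.083 in the highest. Class 3 held 14 of the 42 members, 29 were in the classes whose median was below 0, and 13 were in classes whose median was above 0. Log2 fold changes minus the median of the member's own class had a median of −0.093, and 29 of 42 were below 0. By role this median was 0.018 for the piRNA genes, −0.17 for cohesin, axis and synaptonemal genes, −0.12 for recombination genes and −0.098 for regulators.

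The 25 members under 10 CPM had a median of −0.34 with 24 values below 0, whereas all promoters under 10 CPM had a median of −0.22 with 79.3% below 0. The 17 members at or over 10 CPM had a median of −0.026 with 9 below 0, against 0.055 and 33.9%. Summed over the 25 low members, accessibility was 91.4 and 91.9 CPM in KO and 109 and 121 CPM in WT, with no overlap. Summed over the 17 others it was 491 and 485 CPM in KO and 485 and 502 CPM in WT, with overlap. Olfactory receptor promoters moved with the low members, at 738 and 725 CPM summed in KO and 848 and 897 CPM in WT, with 82.1% of their log2 fold changes below 0. The mitochondrial share was also lower in both KO libraries, at 31.8% and 20.6%, than in the WT libraries, at 34.5% and 35.1%. The part of these levels in the result was not tested.

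**Figure D5:**
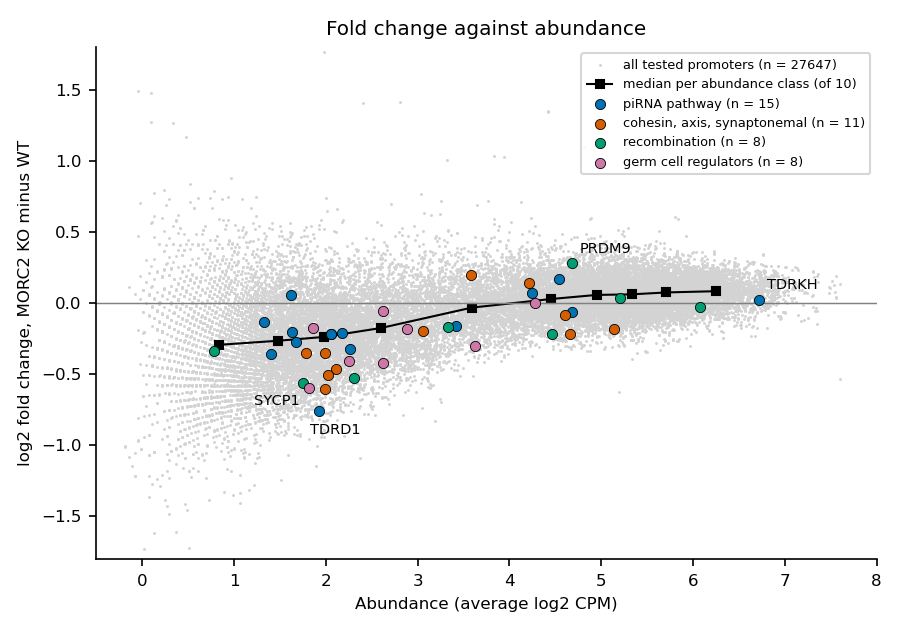
Log2 fold change of MORC2 KO against WT plotted on abundance (average log2 CPM) for all 27647 tested promoters (grey) and the members (coloured by role), with black squares at the median of each of 10 abundance classes. The medians run from −0.29 in the lowest to 0.083 in the highest class, and 29 of 42 members lie below the median of their own class.

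The zero point of these values depends on the scaling of the libraries. With total count scaling the median of all promoters moved from −0.017 to 0.12 and that of the members from −0.20 to −0.062, a shift that this scaling gave to all promoters alike. With loess offsets on abundance the median of the members was −0.096, 29 were below 0 and 10 members changed sign. Of the libraries, WT replicate 2 weighed most on this median, which was −0.11 without it.

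Other genes of the same biology gave no further calls by edgeR. Of the 34 tested promoters in the second germline list, 0 were called. At an unadjusted p under 0.05 there were 1 higher (2.94%) and 3 lower (8.82%), against 11.5% and 8.87% of all promoters. Of the 34, 24 lay under 10 CPM in WT, where the shares of all promoters were 0.890% and 15.4%. TEX12, of the central element of the synaptonemal complex, had 2.20 and 2.29 CPM in KO and 3.43 and 3.99 CPM in WT (−0.71, adjusted p = 0.0967). TOPAZ1 had 2.84 and 2.93 CPM in KO and 4.26 and 4.98 CPM in WT (−0.67, adjusted p = 0.0811). FIGLA, an oocyte transcription factor, had 12.6 and 13.0 CPM in KO and 10.4 and 10.7 CPM in WT (0.28, adjusted p = 0.240). The median of this list was −0.18, and 17 of 34 lay below the median of their abundance class.

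Of 20 promoters of genes that silence germline genes, 0 were called. At an unadjusted p under 0.05 there were 3 higher (15.0%) and 0 lower, against 11.5% and 8.87% of all promoters. Of the 20, 19 lay at or over 10 CPM in WT, where the shares of all promoters were 19.4% and 4.00%. MGA, which recruits the variant Polycomb complex to E-boxes, had 23.9 and 24.1 CPM in KO and 18.9 and 21.0 CPM in WT (0.27, adjusted p = 0.106). HDAC2 had 65.0 and 66.0 CPM in KO and 54.6 and 60.8 CPM in WT (0.19, adjusted p = 0.0890). The median over the 20 was −0.034. Of the 19 somatic relatives 0 were called. At an unadjusted p under 0.05 there were 1 higher (MOV10, 5.26%) and 0 lower, against the same shares of all promoters. Of these relatives, 18 lay at or over 10 CPM in WT. The median over the 19 was 0.015. DESeq2 and limma-trend also called 0 promoters in each of these 3 lists.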

How the data were processed

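ATAC-seq was performed by the authors on 2 MORC2 KO and 2 WT libraries. Per the study's methods, reads were trimmed with Trim Galore, aligned with bowtie2 to CHM13, filtered for properly paired reads with a MAPQ of at least 30 and cleared of duplicates with Picard. The table deposited by the authors holds raw fragment counts per promoter without normalisation. The methods describe 2 kb windows and fragment midpoints, but do not state that this table was counted so, and the processing notes name featureCounts and Subread 2.0.6. The deposited peak list was not used, because no annotation on its assembly was at hand.

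RefSeq (GRCh38.p14) gave symbols for 28763 of 28775 rows, gene order and promoter sequences. From the counts, filterByExpr kept 27647 rows, libraries were scaled by TMM, and KO was compared with WT by two-sided quasi-likelihood F-tests (edgeR 4.0.16 legacy fit, R 4.3.3, no covariates) with Benjamini-Hochberg adjustment over all rows. Standard errors were derived from the F statistics, and intervals are 95%. The common dispersion was 0.00180. The labels do not say whether replicates came from separate cultures, whereas the methods call both the WT replicates and the KO lines independent. P-values measure the spread between these libraries. Chi-square per degree of freedom over the members was 0.907 for the KO pair and 1.80 for the WT pair. Over nuclear promoters above a minimum mean count it was 1.20 and 1.33. At the members the KO libraries thus differed by about the sampling noise, whereas the WT libraries differed by more than elsewhere. All libraries were kept. Single sums over libraries were not tested, since an exact permutation test of 2 against 2 cannot go below p = 0.333. PCR fragments carry no molecular identifiers.

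The members, roles and comparison lists were chosen with earlier results of these data known. Full statistics are given for every called member, filled up to 12 by smallest p, and other members with levels and fold changes. SMC1B, PIWI genes, DDX4, TDRKH, MSH4 and MSH5 were added to these for their role or level. Alternatives were DESeq2 1.42.0, limma-trend (3.58.1), other scalings, filters and fits, a replicate block, another threshold and leaving out each library. DESeq2 without its independent filter was added after seeing the data. The fit was tested on counts simulated with the common dispersion alone and without the shift with abundance seen in these data.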

Additional observations from a re-analysis of the deposited data

How the results depend on the processing

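TDRD1 remained the 1 member called with DESeq2 size factors, without a filter, with the robust fit and without mitochondrial rows (adjusted p from 0.0371 to 0.0414). The number of members called was 0 with total count scaling, loess offsets, a mean count of at least 50 (25 members tested, TDRD1 not among them), the replicate block, the edgeR 4 fit, limma-trend and DESeq2 with or without its independent filter. At an unadjusted p under 0.05 these had 1 higher and 1 lower, 1 and 5, 1 and 7, 1 and 12, 1 and 12, 1 and 10, and, for DESeq2, 0 and 1. At an adjusted p under 0.1 it was 2, PRDM9 higher and TDRD1 lower. Leaving out 1 library gave 0 to 3 calls, the 3 without WT replicate 1. For a fit with 1 library in a group, that library is assumed to vary like the other group. The median of the members moved to −0.062 with total count scaling and −0.096 with loess offsets, and ran from −0.24 to −0.11 with 1 library left out. Over all promoters the calls were 20 with total count scaling, 394 with loess offsets, 787 at a mean count of at least 50, 765 with the replicate block, 717 with limma-trend, 7 with DESeq2 under either filter and 2249 at an adjusted p under 0.1, against 1229 in the edgeR fit, of which 954 were higher. With total count scaling 19 of 20 were higher, with loess offsets 217 of 394, and with 1 library left out the calls ran from 41 (without KO replicate 2) to 1637 (without WT replicate 1), with 230 without WT replicate 2. Fewer promoters tested or fewer libraries lie behind some of these, and for the rest the cause was not tested.

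The labels do not say whether libraries with the same replicate number were prepared together. Deviations of same-numbered libraries had a correlation of 0.0149 over 19833 promoters. With 2 libraries in each group this value cannot decide the question. The 12 members with full statistics had been taken by smallest p, and none of them changed direction under any alternative. Over all 42 members, 10 changed direction with loess offsets on abundance and 5 with total count scaling. Without WT replicate 1 it was 7 members, and without WT replicate 2 also 7. Promoters under 10 CPM rest on as few as 11 fragments in a library (MEIOB, WT replicate 1), and their intervals are wide.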
